A study of Mus musculus with 12 samples.

Results

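Nicotinic acetylcholine receptor subunits are the proteins that assemble into the cation channels opened by acetylcholine and by nicotine. The neuronal subunit genes Chrna2, Chrna3, Chrna4, Chrna5, Chrna6, Chrna7, Chrnb2, Chrnb3 and Chrnb4 were taken from the value table by gene symbol, keeping rows whose platform annotation named exactly 1 gene. All 9 had such a row, 1 row each, out of 21218 rows with 1 symbol and 18820 different symbols.

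Expression was profiled with Mouse Gene 1.1 ST strips (Affymetrix) in the nucleus accumbens, taking core and shell together, of C57BL/6N mice 12 weeks old. The 6 poly(I:C) arrays came from offspring of dams that had been injected intravenously on gestation day 17 with poly(I:C) at 5 mg/kg, which imitates the double-stranded RNA of viruses. The 6 control arrays came from offspring of dams given intravenous saline on the same day. All offspring had gone through cognitive and behavioural tests before dissection. No source used here gives litter or sex. The comparison asks which transcripts in the grown offspring differ following immune activation before birth.

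A nicotinic receptor is a ring of subunits around a pore. Chrna4 and Chrnb2 encode the partners of the most common heteromeric brain receptor, to which Chrna5 can be added as an accessory subunit. Chrna7 encodes a subunit that forms channels by itself and passes much calcium. Chrna3 and Chrnb4 encode the partners of the receptor of autonomic ganglia and of the medial habenula, and Chrna6 and Chrnb3 are typical of midbrain dopamine neurons. In the accumbens, acetylcholine comes from local cholinergic interneurons, and nicotinic receptors on dopamine axons regulate dopamine release. The transcripts for those axonal receptors are made in the midbrain cell bodies, outside the dissected tissue.

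Per the RefSeq gene table of GRCm38.p6, Chrna5, Chrna3 and Chrnb4 are direct neighbours on chromosome 9, and Chrnb3 and Chrna6 are direct neighbours on chromosome 8. The models of Chrna5 and Chrna3 lie on opposite strands and overlap, and the Chrnb2 model overlaps that of its neighbour Adar, an RNA-editing enzyme gene. Promoter windows from RefSeq (GRCm38.p6, 250 bases before to 50 bases after the start) were held for 6 of the 9 genes, with 2 windows for Chrna5. No window was held for Chrna2, Chrna6 and Chrnb3. The windows of Chrna4 and Chrnb2, the genes with the highest array levels, and of Chrna3 and Chrna5, the neighbours whose levels ran in opposite directions across the arrays, are printed 5′ to 3′ with CpG dinucleotides in capitals.
Chrna4, chr2:181039128-181039427, minus strand: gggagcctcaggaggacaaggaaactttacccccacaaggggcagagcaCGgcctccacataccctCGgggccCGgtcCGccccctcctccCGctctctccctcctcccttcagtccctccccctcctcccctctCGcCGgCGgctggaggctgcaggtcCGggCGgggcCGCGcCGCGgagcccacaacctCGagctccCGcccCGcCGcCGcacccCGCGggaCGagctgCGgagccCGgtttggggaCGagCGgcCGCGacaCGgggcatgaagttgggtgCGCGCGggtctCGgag
Chrnb2, chr3:89764583-89764882, minus strand: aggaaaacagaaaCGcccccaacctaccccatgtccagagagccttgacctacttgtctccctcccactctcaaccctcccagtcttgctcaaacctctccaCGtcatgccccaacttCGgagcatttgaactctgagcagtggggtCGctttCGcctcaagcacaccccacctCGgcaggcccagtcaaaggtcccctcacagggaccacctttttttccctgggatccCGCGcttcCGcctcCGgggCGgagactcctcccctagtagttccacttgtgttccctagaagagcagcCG
Chrna3, chr9:55026513-55026812, minus strand: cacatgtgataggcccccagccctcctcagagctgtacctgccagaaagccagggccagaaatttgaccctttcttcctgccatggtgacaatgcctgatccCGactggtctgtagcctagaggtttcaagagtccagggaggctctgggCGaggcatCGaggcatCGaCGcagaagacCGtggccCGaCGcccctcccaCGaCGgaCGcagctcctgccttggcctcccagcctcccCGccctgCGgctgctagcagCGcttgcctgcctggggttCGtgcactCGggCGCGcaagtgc
Chrna5 first start, chr9:54980630-54980929, plus strand: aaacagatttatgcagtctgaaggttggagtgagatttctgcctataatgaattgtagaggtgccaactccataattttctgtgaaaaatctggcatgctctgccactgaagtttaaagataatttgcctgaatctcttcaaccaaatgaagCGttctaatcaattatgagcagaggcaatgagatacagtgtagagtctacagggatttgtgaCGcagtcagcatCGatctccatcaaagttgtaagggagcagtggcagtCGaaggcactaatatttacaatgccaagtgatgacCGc
Chrna5 second start, chr9:54981238-54981537, plus strand: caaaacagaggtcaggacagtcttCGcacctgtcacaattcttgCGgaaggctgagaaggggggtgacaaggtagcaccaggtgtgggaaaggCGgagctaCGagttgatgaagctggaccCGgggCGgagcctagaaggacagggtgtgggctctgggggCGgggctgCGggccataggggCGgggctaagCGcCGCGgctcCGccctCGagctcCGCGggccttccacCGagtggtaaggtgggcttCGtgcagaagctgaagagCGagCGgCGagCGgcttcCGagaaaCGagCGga

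The Chrna4 window held 33 CpG dinucleotides, more than 91.4% of all 32851 windows of this length, where the median was 7.0. Its GC content was 74.3%. The Chrnb2 window held 12 CpG dinucleotides at a GC content of 59.0%. For Chrna3 there were 18 at 64.3%. The windows of Chrna5 differed from each other, with 5 CpG dinucleotides at 41.3% GC for the first start and 25 at 65.0% GC for the second. The GC box GGGCGG, searched on both strands, occurred 3 times for Chrna4, 1 time each for Chrnb2 and Chrna3, and 0 and 4 times in the first and second Chrna5 windows. It was present in 35.7% of all windows. The files do not tie the Chrna5 array row to either start.

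Levels are log2 values, each set against the median over all rows of its own array, which lay between 4.78 and 4.85. Chrna4, Chrnb2 and Chrna7 stood clearly above that median on every array. Chrna4 was higher than the array median by 2.71 ± 0.27 (SD, n = 12 arrays), Chrnb2 by 2.45 ± 0.16 and Chrna7 by 1.52 ± 0.16. Chrnb4 was slightly above the median, at 0.21 ± 0.07. The levels of Chrna5 and Chrna3 lay around it, at -0.10 ± 0.15 and -0.26 ± 0.16. Chrna2, Chrnb3 and Chrna6 were below the median on every array, at -0.67 ± 0.11, -0.94 ± 0.04 and -1.86 ± 0.07. A level on an array depends on the probes as well as on the transcript, so this order is an order of array signals.

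Neighbours in that order were not always separate. Chrna4 exceeded Chrnb2 on 11 of 12 arrays, with a mean gap of 0.26 ± 0.24 and overlapping ranges. The steps from Chrnb2 to Chrna7 (0.94 ± 0.18) and from Chrna7 to Chrnb4 (1.30 ± 0.20) had ranges that did not overlap. Chrnb4 exceeded Chrna5 on 11 arrays and Chrna5 exceeded Chrna3 on 9 arrays, with overlapping ranges in both cases. The steps from Chrna2 to Chrnb3 (0.27 ± 0.12) and from Chrnb3 to Chrna6 (0.92 ± 0.07) were again free of overlap.

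Genes that brain tissue is not known for gave a reference for low signals. Over 1006 olfactory receptor rows the median level was 3.15 and the 95th percentile 4.17. Chrna6, at 2.95 over the 12 arrays, lay under that median, and Chrnb3 at 3.87 and Chrna2 at 4.14 lay under that percentile. Chrna3 (4.55), Chrna5 (4.71) and Chrnb4 (5.02) lay above it but under the highest olfactory receptor rows. The 7 muscle and inner ear subunit genes, which are not typical of brain, averaged 3.93 ± 0.04 in controls. Differences in Chrna6, Chrnb3 and Chrna2 are therefore differences among signals of that range.

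**Figure D1:**
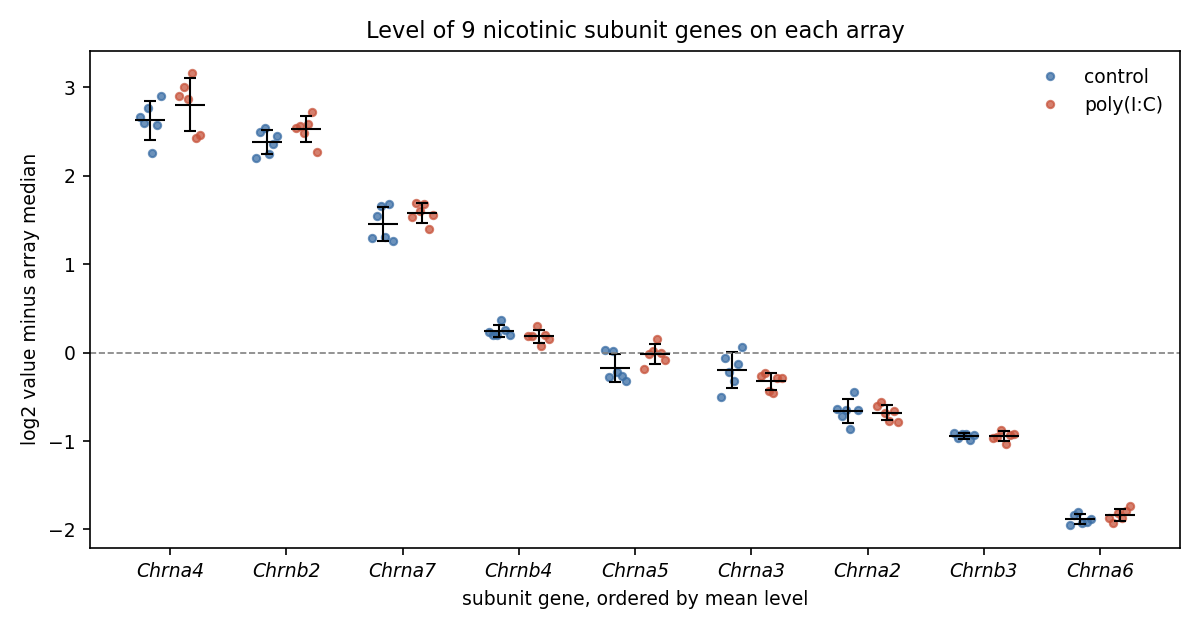
Log2 value minus the median of the same array (vertical axis) for the 9 subunit genes, with 1 point per array, 6 control and 6 poly(I:C), and black bars for mean ± SD. Chrna4, Chrnb2 and Chrna7 lie 1.52 to 2.71 above the median on average, Chrna6 lies 1.86 below it, and the groups overlap for every gene.

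None of the 9 subunit genes passed the threshold in poly(I:C) offspring over all genes (limma adjusted p from 0.394 to 0.885). The number with an unadjusted limma p under 0.05 was also 0. Over all 21218 rows, 0.0613% passed the adjusted threshold of 0.05 and 14.4% had an unadjusted p under 0.05. Non-overlapping group ranges were found for 0 of the 9 genes, against 1.13% of all rows. After exposure 5 were higher in value and 4 lower, and 50.9% of all rows were higher. Exact permutation tests of the single differences gave p from 0.115 to 0.643. The median difference of the 9 genes was 0.04 on the log2 scale, and that of all rows was 0.00.

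Chrna4 in controls ran from 7.11 to 7.72 with a median of 7.44, and in poly(I:C) offspring from 7.24 to 7.96 with a median of 7.70. In poly(I:C) offspring 3 arrays lay above the highest control, whereas poly(I:C) 5 and poly(I:C) 6, both at 7.24, lay below the control mean. The means were 7.44 ± 0.21 and 7.61 ± 0.30 (SD, n = 6 arrays per group). They differed by 0.17 (95% interval -0.11 to 0.44) with a limma adjusted p of 0.589. The spread within the poly(I:C) group exceeded this difference. With 1 array left out it ran from 0.09 (without poly(I:C) 4) to 0.24 (without poly(I:C) 5), and it was 0.10 without control 4.

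Chrnb2, its usual partner, ran from 7.03 to 7.33 in controls with a median of 7.22, and from 7.05 to 7.53 in exposed offspring with a median of 7.36. Of the poly(I:C) arrays 4 lay above the highest control, and poly(I:C) 6 was the only array of its group below the control mean. The difference of 0.13 (7.20 ± 0.11 against 7.33 ± 0.16) had a 95% interval of -0.02 to 0.29 and a limma adjusted p of 0.415. With 1 array left out the difference ran from 0.09 without poly(I:C) 5 (limma unadjusted p = 0.195, adjusted p = 0.586) to 0.19 without poly(I:C) 6 (unadjusted p = 0.00651, adjusted p = 0.145). It was 0.10 without control 1 (limma unadjusted p = 0.179, adjusted p = 0.557) and 0.16 without control 3 (unadjusted p = 0.0493, adjusted p = 0.290). Probe positions were not used here, so the part of sequence shared with Adar in the Chrnb2 signal was not tested.

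Across the 12 arrays, with group means removed, Chrna4 and Chrnb2 did not show a detectable correlation (Pearson r = 0.31, Spearman rho = 0.22, permutation p = 0.334 and 0.501, adjusted over 5 pairs 0.533 and 0.740). Without poly(I:C) 5 and 6, the 2 arrays farthest from the median of the Chrna4 deviations from group means, r was 0.49.

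Chrna7, the subunit of the homomeric calcium-permeable receptor, ran from 6.08 to 6.49 in controls (median 6.24) and from 6.21 to 6.49 in poly(I:C) offspring (median 6.38). The highest arrays of both groups were level, and 3 controls lay below the lowest poly(I:C) array. The log2 difference was 0.11 (6.27 ± 0.17 against 6.38 ± 0.10) with an interval of -0.05 to 0.27 (limma adjusted p = 0.541). With 1 array left out it ran from 0.07 (without control 6) to 0.15 (without control 5), and without controls 4 and 6 together it was 0.03.

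Chrna5, the accessory subunit, ran from 4.50 to 4.87 in controls with a median of 4.59, and from 4.64 to 4.96 in poly(I:C) offspring with a median of 4.79. In the control group, controls 2, 5 and 6 stood at 4.50, 4.55 and 4.50, control 4 at 4.64, and controls 1 and 3 at 4.87 and 4.81. The difference was 0.14 (4.64 ± 0.16 against 4.78 ± 0.11, 95% interval -0.01 to 0.29, limma adjusted p = 0.394), and 5 of 6 poly(I:C) arrays lay above the control mean. Unadjusted, the limma p was 0.0721. With 1 array left out the difference ran from 0.10 without poly(I:C) 4 (limma unadjusted p = 0.168, adjusted p = 0.617) to 0.18 without control 1 (unadjusted p = 0.0151, adjusted p = 0.213). The unadjusted limma p was also lower without control 3 (0.0330) and poly(I:C) 1 (0.0390), with adjusted p-values of 0.245 and 0.357. It was higher without control 2 (0.156) and control 6 (0.153).

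Chrna3 differed in the opposite direction in value. Controls ran from 4.33 to 4.88 (median 4.63) and poly(I:C) arrays from 4.35 to 4.55 (median 4.51), so that 4 controls lay above the highest poly(I:C) array and control 1 lay below the lowest. The means, 4.62 ± 0.19 and 4.48 ± 0.09, differed by -0.14 (95% interval -0.31 to 0.02, limma adjusted p = 0.409), and 6 of 6 poly(I:C) arrays lay below the control mean. With 1 array left out the difference ran from -0.20 without control 1 (limma unadjusted p = 0.00712, adjusted p = 0.170) to -0.09 without control 6 (unadjusted p = 0.194, adjusted p = 0.593). Without poly(I:C) 4 it was -0.12 (limma unadjusted p = 0.160, adjusted p = 0.608).

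Chrnb4, which pairs with Chrna3 in ganglionic receptors, ran from 4.97 to 5.22 in controls (median 5.05) and from 4.89 to 5.11 in poly(I:C) offspring (median 4.99). The difference was -0.07 (95% interval -0.17 to 0.03, limma adjusted p = 0.525), and it ran from -0.10 (without poly(I:C) 3) to -0.04 (without control 4) with 1 array left out. Chrna2 ranged from 3.99 to 4.37 in controls and from 4.00 to 4.23 in poly(I:C) offspring, a difference of -0.03 (-0.16 to 0.10, adjusted p = 0.857).

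For Chrnb3 the ranges were 3.81 to 3.93 and 3.78 to 3.94, with a difference of -0.02 (95% interval -0.09 to 0.06, limma adjusted p = 0.885). Chrna6 ranged from 2.88 to 2.99 and from 2.86 to 3.05, a difference of 0.04 (-0.04 to 0.12, adjusted p = 0.676), which ran from 0.02 (without poly(I:C) 6) to 0.06 (without poly(I:C) 2) with 1 array left out. These dopamine neuron subunits varied by less than 0.07 (SD) within a group. No correlation between them was detectable across the arrays (r = 0.26, rho = 0.29, permutation p = 0.426 and 0.365, adjusted over 5 pairs 0.533 and 0.740). Without poly(I:C) 2 and poly(I:C) 6, the arrays farthest from the median of the Chrna6 deviations from group means, r was 0.23. Of 8 dopamine neuron marker genes, 3 (Slc6a3, Slc18a2 and En1) had a mean level below the array median and the others lay above it. Together the 8 averaged 5.25 ± 0.12 (control) and 5.30 ± 0.09 (poly(I:C)), and 0 of the 8 had an unadjusted limma p under 0.05.

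**Figure D2:**
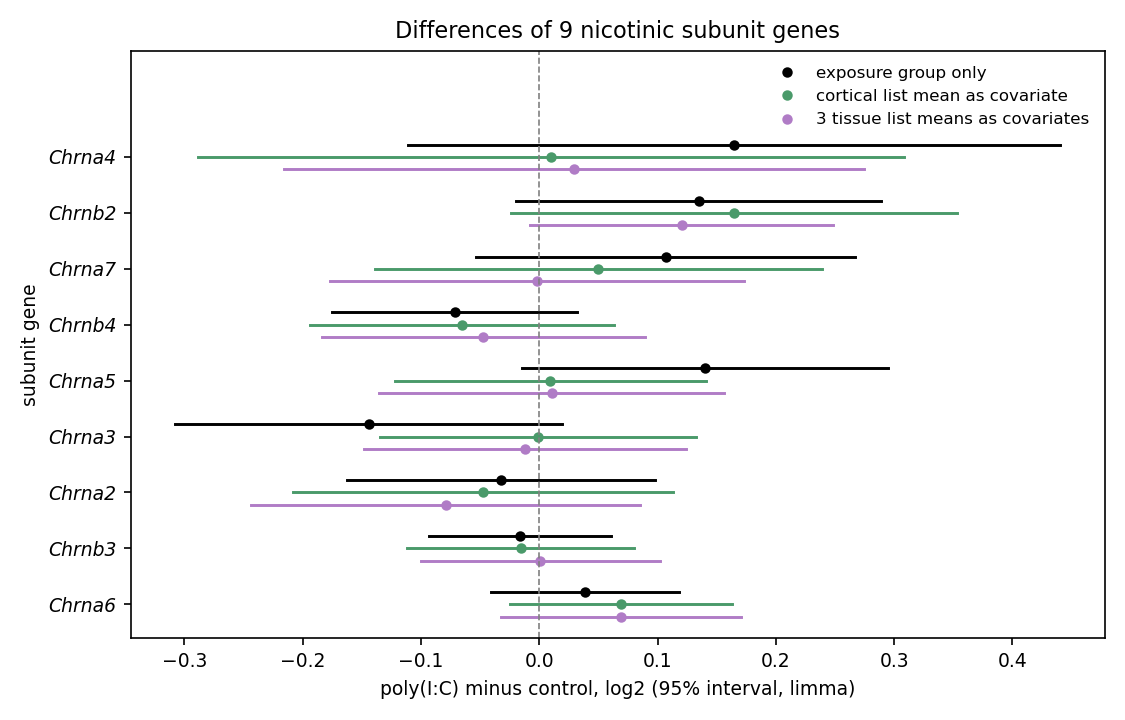
Poly(I:C) minus control differences on the log2 scale with 95% limma intervals (horizontal axis) for the 9 subunit genes, from the model with exposure alone, with the cortical list mean as covariate, and with 3 list means (choroid plexus, cortex and septum) as covariates. Every interval includes 0, and the points of Chrna5 and Chrna3 move from 0.14 and -0.14 to 0.01 and 0.00 with the cortical mean as covariate. The cortical mean was itself higher in value in poly(I:C) offspring.

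Chrna5 and Chrna3 ran in opposite directions across the 12 arrays. Control 6, with the highest Chrna3 value of all arrays (4.88), had the lowest Chrna5 value (4.50), and control 1, with the lowest Chrna3 value (4.33), had the second highest Chrna5 value (4.87). The highest Chrna5 value, 4.96 in poly(I:C) 4, went with a Chrna3 value of 4.35. With group means removed, Pearson r was -0.84 (permutation p = 0.00025, adjusted over 5 pairs 0.00125) and Spearman rho -0.90 (permutation p = 0.00013, adjusted 0.00065). Within controls r was -0.87 (exact permutation p = 0.0125, adjusted 0.0625), and within poly(I:C) arrays it was -0.79 (exact permutation p = 0.0597, adjusted 0.299). Control 1 and poly(I:C) 4 were farthest from the median of the Chrna5 deviations from group means. Without these arrays r was -0.69 (permutation p = 0.0274, adjusted 0.137), so the call was lost while the sign was kept. Leaving arrays out also lowers the number compared, so a lost call alone does not show that it rested on them.

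The third gene of the cluster did not follow. The correlation of Chrna3 with Chrnb4 was -0.26 (rho = -0.17, permutation p = 0.414 and 0.592, adjusted 0.533 and 0.740), and that of Chrna5 with Chrnb4 was -0.03 (rho = 0.01, permutation p = 0.921 and 0.973, adjusted 0.921 and 0.973). With the 2 farthest arrays left out, r was -0.28 and 0.21. Because the Chrna5 and Chrna3 models overlap on opposite strands and probe positions were not used here, the part of shared sequence in their signals was not tested.

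Genes of cortical glutamatergic neurons, cells that lie outside the accumbens, moved with both genes. Of 10 listed cortical markers 8 had a row. Their mean ran from 5.85 (control 6) to 7.05 (control 1) in controls and from 6.35 to 7.20 (poly(I:C) 4) in poly(I:C) offspring, and 7 of the 8 lay above the array median. Slc17a7, which loads glutamate into synaptic vesicles of cortical neurons, had means of 7.32 ± 1.49 and 8.82 ± 0.70. Of the 8 genes 7 were higher in value in poly(I:C) offspring, 5 had an unadjusted limma p under 0.05 and 0 passed the adjusted threshold. Over all rows 50.9% were higher in value and 14.4% had an unadjusted p under 0.05.

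With group means removed, the cortical mean correlated with Chrna5 (r = 0.78, rho = 0.69, permutation p = 0.00299 and 0.0171, adjusted over 18 relations 0.0269 and 0.156). Its relation to Chrna3 had the opposite sign (r = -0.80, rho = -0.69, permutation p = 0.00196 and 0.0174, adjusted 0.0269 and 0.156). Control 1 and poly(I:C) 4 were farthest from the median of the cortical mean's deviations from its group means. Without these arrays r was 0.55 for Chrna5 and -0.57 for Chrna3 (adjusted permutation p = 0.371 and 0.367), so these calls were lost. Within controls r was 0.94 and -0.89 (exact permutation p, adjusted, 0.125 and 0.158), and within poly(I:C) arrays it was 0.47 and -0.60 (adjusted 0.767 and 0.675).

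With the cortical mean as a covariate, the poly(I:C) difference was 0.01 for Chrna5 (95% interval -0.12 to 0.14), 0.00 for Chrna3 (-0.13 to 0.13), 0.01 for Chrna4 (-0.29 to 0.31) and 0.05 for Chrna7 (-0.14 to 0.24), against 0.16 for Chrnb2 (-0.02 to 0.35). The cortical mean was itself higher in value after exposure (6.33 ± 0.43 in controls, 6.80 ± 0.33 in poly(I:C) offspring). An exposure difference and a difference in cortical tissue therefore cannot be told apart in this model. With the cortical mean removed from both genes, the correlation of Chrna5 with Chrna3 was -0.57 (rho = -0.55, permutation p = 0.0548 and 0.0674, adjusted 0.218 and 0.248). A list of 11 choroid plexus and ependymal genes ran from 4.83 to 6.74 in controls, with controls 4 and 6 the highest, and from 4.66 to 4.89 in exposed offspring. With 3 list means (choroid plexus, cortex and septum) entered together as covariates, the subunit differences ran from -0.08 (Chrna2) to 0.12 (Chrnb2), and 0 of 9 had an unadjusted limma p under 0.05. The choroid plexus and cortical means themselves differed in value between the groups, so exposure and tissue cannot be told apart in this model either. The models and relations with the cortical or septal mean alone were added after the values had been seen.

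**Figure D3:**
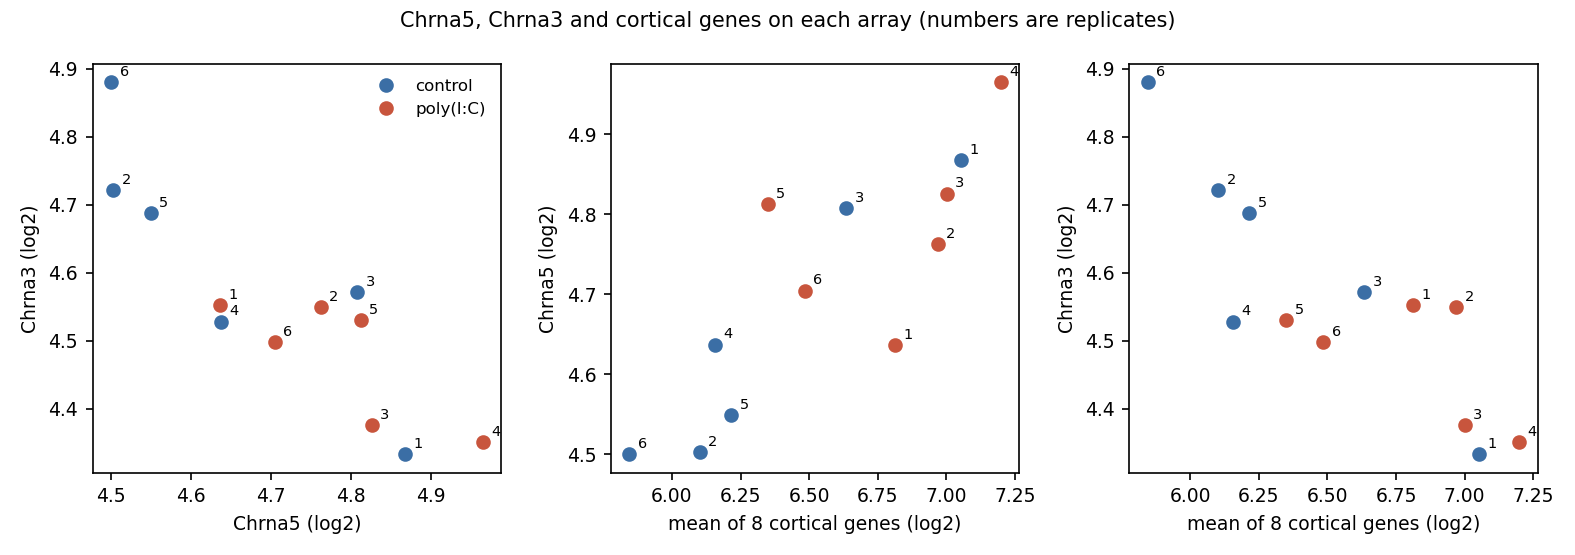
Log2 values on each of the 12 arrays, numbered by replicate, for Chrna3 against Chrna5 (left), and for Chrna5 (middle) and Chrna3 (right) against the mean of 8 cortical genes. Control 6 lies at the low Chrna5, high Chrna3 and low cortical end, and poly(I:C) 4 and control 1 lie at the opposite end.

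The relations of Chrna4 and Chrna7 to the cortical mean did not pass after adjustment. Within poly(I:C) arrays r was 0.96 for Chrna4 and 0.92 for Chrna7 (exact permutation p, adjusted over 18 relations, 0.0667 for both), and within controls it was 0.04 and 0.06 (exact adjusted p = 0.946 for both). Over all 12 arrays r was 0.49 for Chrna4 (rho = 0.46, permutation p adjusted 0.367 and 0.361) and 0.33 for Chrna7 (rho = 0.49, permutation p adjusted 0.673 and 0.361). The difference between the groups in these relations was not tested. Chrnb2 went with a list of 11 genes of septal, pallidal and diencephalic neurons (r = 0.72, rho = 0.61, permutation p = 0.00723 and 0.0402, adjusted 0.0434 and 0.241). Of these 11 genes, 5 went up and 6 went down following exposure, so the list had no common direction between the groups. An unadjusted limma p under 0.05 was found for 2 of the genes going up and 2 of those going down. The adjusted threshold was passed by 0 of them. The mean of the list ran from 5.60 to 6.39 across controls and from 5.43 to 6.09 across exposed offspring. Control 6 and poly(I:C) 6 were farthest from the median of the list's deviations from group means. Without these arrays r for Chrnb2 was 0.64 (permutation p = 0.0431, adjusted 0.267), so the call was lost while the sign was kept. Within controls r was 0.55 and within poly(I:C) arrays 0.97 (exact permutation p, adjusted, 0.862 and 0.0667). With the septal mean as covariate the Chrnb2 difference was 0.19 (95% interval 0.07 to 0.31, limma unadjusted p = 0.00488, adjusted p = 0.150). For Chrna3 and Chrna5, r with the septal list was 0.64 and -0.39 (permutation p = 0.0241 and 0.210, adjusted 0.109 and 0.539). Within controls these were 0.86 and -0.82 (exact permutation p, adjusted, 0.158 and 0.256), so neither relation passed after adjustment.

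Markers of the cells that define the accumbens were present. The 8 measured genes of medium spiny neurons averaged 9.52 ± 0.19 (control) and 9.54 ± 0.14 (poly(I:C)), all above the array median. The 7 measured genes of cholinergic interneurons, the local source of acetylcholine, averaged 5.73 ± 0.11 and 5.76 ± 0.13.

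Genes of oligodendrocytes, the myelinating cells, also differed. All 7 measured genes had lower values after exposure, 6 had an unadjusted limma p under 0.05, and the ranges of 2 did not overlap between the groups. Over all 21218 rows, 50.9% were higher in value, 14.4% had an unadjusted p under 0.05 and 1.13% had no overlap. The adjusted threshold was passed by 0.0613% of all rows. Mobp, a myelin protein gene, fell from 9.00 ± 0.16 to 8.49 ± 0.06 (limma adjusted p = 0.0411), and 1 of the 7 passed the adjusted threshold. This call was lost, with 0 of all rows passing, with the replicate number as a block and with the cortical mean as covariate. It was also lost without controls 4 and 6 together, with 3 tissue means as covariates and over all 35556 rows. Leaving out any 1 of controls 4, 5 and 6 or of poly(I:C) 2, 3, 4 and 5 lost it too. The mean level of the 7 oligodendrocyte genes went from 8.16 ± 0.24 (control) to 7.78 ± 0.06 (poly(I:C)). Among controls it was highest in controls 6 (8.48) and 2 (8.40) and lowest in control 1 (7.85). Controls 6 and 2 also had the highest Chrna3 values of all arrays, at 4.88 and 4.72, and control 1 the lowest, at 4.33. The part of the oligodendrocyte genes in the subunit results was not tested. In bulk tissue fewer cells of a type and less RNA per cell cannot be told apart.

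The genes whose values most resembled each brighter subunit across the 12 arrays, with group means removed and 12252 rows above the array median compared, are given as a description. For Chrna4 they were Megf9 (r = 0.94), Cnih3, an AMPA receptor auxiliary subunit gene (0.93), and the kinesin light chain gene Klc1 (0.92). For Chrnb2 they were Prr5 (0.95), Hus1 (0.94) and C1ql2 (0.94). For Chrna7 they were Fbxw2 (0.93), Lix1 (0.92) and Atrn (0.92), and for Chrnb4 Kdelr1 (0.89), Bicra (0.87) and Ift27 (0.83). They were picked as the highest of many rows over the same arrays, so no test is given.

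Other genes of nicotinic signalling also gave 0 calls over all genes. Their counts stand beside 50.9% of all rows higher in value and 14.4% with an unadjusted p under 0.05. Among 7 muscle, inner ear and related subunit genes 5 were higher in value and 0 had an unadjusted p under 0.05. Chrnb1, the muscle beta subunit, differed by 0.06, Chrna10 by 0.08 and Chrna1 by -0.05. Of 10 measured chaperone and assembly genes 4 were higher and 6 lower in value. Ywhah, a 14-3-3 protein gene, stood at 10.60 ± 0.14 and 10.74 ± 0.08 (difference 0.13, limma unadjusted p = 0.0448, adjusted p = 0.336). Ubqln1, a ubiquilin gene, differed by -0.08 (unadjusted p = 0.0488, adjusted p = 0.344) and Rapsn, the gene of the muscle receptor clustering protein, by 0.12.

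Of 9 measured genes of the Ly6 family, whose members include small proteins that bind and modulate nicotinic receptors, 5 were higher in value. Ly6g6e went from 4.51 ± 0.15 to 4.76 ± 0.13, a difference of 0.26 (95% interval 0.10 to 0.41, limma unadjusted p = 0.00389, adjusted p = 0.158). Its level was near the array median. Lypd6b differed by 0.12 and Lypd2 by -0.08. The main brain prototoxin gene Lynx1 differed by 0.04.

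Among 6 genes of acetylcholine handling 3 were higher in value and 3 lower. Slc44a1, a choline transporter gene, went from 8.38 ± 0.14 to 8.16 ± 0.09, a difference of -0.22 (95% interval -0.35 to -0.08, limma unadjusted p = 0.00366, adjusted p = 0.156). The cholinesterase genes Bche and Ache differed by -0.17 and -0.09, and Chat, the acetylcholine synthesis enzyme, by 0.07. Of 7 measured calcium and second messenger genes 6 were higher in value, against 50.9% of all rows. Ryr2, an intracellular calcium release channel gene, differed by 0.19 (unadjusted p = 0.0151, adjusted p = 0.240), Camk2a by 0.09 (unadjusted p = 0.0297, adjusted p = 0.296) and Prkca by 0.14.

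**Figure D4:**
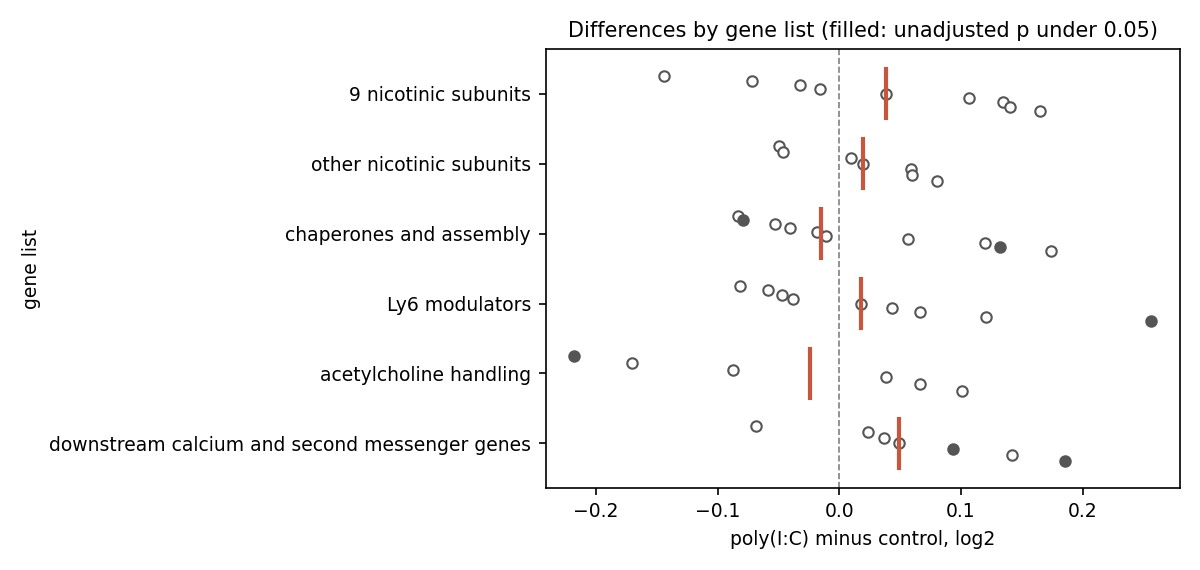
Poly(I:C) minus control log2 differences (horizontal axis) of single genes in 6 gene lists, with filled points for an unadjusted limma p under 0.05 and a red bar for the list median. The 9 nicotinic subunits have no filled point, and the list medians lie between -0.02 and 0.05.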

How the data were processed

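Per the labels' protocols, the accumbens was micro-dissected from 1-mm coronal sections (bregma 1.5 to 0.5 mm), and 250 ng of RNA went on each array. The authors deposited 35556 log2 values per array, made with RMA and Partek 6.6 per the submitters' processing notes. RMA gives all arrays nearly the same distribution and compresses low values. The sources used here give neither RMA settings nor a genome build. Groups came from the titles (biological replicates 1 to 6 in each), litter mates would count as independent, and 0 pairs of arrays were identical. The number of arrays limits the precision.

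Rows were named from the platform annotation. Each of 21218 rows with 1 symbol was fitted with limma 3.58.1 in R 4.3.3 (lmFit, eBayes, two-sided, Benjamini-Hochberg over all rows, threshold 0.05), with 10 residual and 3.94 prior degrees of freedom. The fit was tried on simulated data with independent noise for each row and array. Variation that genes share across arrays was not simulated. Correlations across arrays used 100000 permutations, or all permutations within a group. Differences are poly(I:C) minus control. Alternatives covered arrays, model terms, scaling, variance model and rows tested. Named genes are the 9 subunits, up to 3 of each fixed list by unadjusted p, and the 3 genes most like each brighter subunit. Lynx1, Chat, Slc6a3, Slc18a2, En1, Adar, Mobp and Slc17a7 fall outside that rule and were picked with their values known. The members and lists were chosen with earlier results of these data known. Where a symbol had several rows, the row with the highest mean was used.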

Additional observations from a re-analysis of the deposited data

How the results depend on the processing

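Under the 24 other settings, 0 of the 9 subunit genes passed the adjusted threshold. The number with an unadjusted limma p under 0.05 was 1 with each array centred on its median, 3 with array weights (Chrna3, Chrna5 and Chrnb2), 1 with the septal mean as covariate and 0 to 2 with 1 array left out. Direction changed in a few cases. Chrna7 was at -0.0017 with 3 tissue means as covariates. Chrnb3 was at 0.0021 without controls 4 and 6, at 0.00082 with the 3 tissue means and at 0.0018 after repeated quantile normalization. With 1 array left out it ran from -0.032 to 0.00062 and Chrna2 from -0.065 to 0.011. The differences of Chrna4, Chrnb2, Chrnb4, Chrna5, Chrna3 and Chrna6 kept their direction in every setting that gave a value, but not always their size. With the cortical mean as covariate, Chrna3 was at -0.0011, Chrna5 at 0.0093 and Chrna4 at 0.010. In the same model Chrnb2, Chrnb4 and Chrna6 were at 0.16, -0.065 and 0.069. The cause of these changes was not tested.

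Over all rows, 13 passed the adjusted threshold. The count was 0 with the replicate number as a block, without controls 4 and 6 together, with the 3 tissue means and with the cortical mean. It was also 0 over all 35556 rows. With 1 array left out it ran from 0 to 84. It was 0 on leaving out any 1 of controls 4, 5 and 6 or of poly(I:C) 2, 3, 4 and 5. It was 20 among rows above the median level, 33 with the septal mean, 38 after quantile normalization and 140 with array weights. Deviations of same-numbered arrays correlated from -0.20 to 0.27, and 1 of 6 numbers matched best with its own. These correlations cannot tell whether same-numbered samples share a litter, cage or batch. With the replicate block 0 subunits passed.

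Against the median over rows with 1 symbol, levels were 2.06 (Chrna4), 1.80 (Chrnb2), 0.86 (Chrna7), -0.44 (Chrnb4, which was above the median of all rows), -0.75 (Chrna5), -0.91 (Chrna3), -1.32 (Chrna2), -1.60 (Chrnb3) and -2.51 (Chrna6). The correlation of Chrna5 with Chrna3 was -0.87 within controls, -0.79 within poly(I:C) arrays, -0.69 without the 2 farthest arrays and -0.57 with the cortical mean removed, and none of these passed after adjustment. Chrna3 with Chrnb4 was at 0.030 within poly(I:C) arrays, Chrna5 with Chrnb4 at 0.091 within controls, 0.21 without the 2 farthest arrays and 0.024 with the cortical mean removed, and Chrna6 with Chrnb3 at -0.18 within controls. Averaging several rows of a symbol gave no further value, since each subunit had 1 row.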
